A study of Mus musculus with 6 samples.

Results

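A sharp methylation boundary is taken here as a pair of neighbouring regions in which one region was heavily methylated and the other was not. Pairs were consecutive autosomal regions of the deposited tables, at most 500 bases apart and with methylation calls in all 6 samples. A pair was kept where the mean level of the 2 control samples differed by 50 percentage points or more between its regions. This rule chose 6639 of 73481 consecutive pairs (9.03%), made of 13047 regions among the 177443 autosomal regions with calls in all 6 samples. In each pair the region with the higher control level is called the high side and the other the low side, and the step is the level of the high side minus that of the low side, in percentage points. Because control levels chose and oriented the pairs, values of these pairs set against control are descriptions. Where a test over all regions or pairs gives a p for them, it supports nothing about the boundaries. The mean levels and steps of curcumin set against AOM/DSS used no value that the choice had used. The tests of single regions and pairs were fitted on all 6 samples, so control counts entered their estimate of spread.

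The samples were colon epithelial cells of C57BL/6 mice aged 18 weeks, scraped from colons after the proximal segment and the tumors of the right colon had been taken away. In 1 group the mice had received AOM (azoxymethane, a carcinogen), DSS (dextran sulfate sodium, which inflames the colon) and curcumin (a polyphenol of turmeric), in another AOM and DSS alone, and the control group had neither. Each group had 2 samples, numbered 0 and 1, and the labels do not say whether a sample was 1 mouse or a pool. The p-values therefore cover no more than the spread of these samples, which may be technical. Doses and timing are not stated in the labels, and scraped mucosa can hold cells other than epithelium, which methylation calls alone could not separate. A change in the cells' methylation and a change in the mix of cells cannot be told apart in such bulk samples.

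In mammalian DNA, methyl groups sit on the cytosines of CpG dinucleotides. Most CpGs of the genome carry them, while dense clusters of CpGs, called CpG islands and often found at gene starts, mostly do not. The edges of such clusters, the shores, are where methylation passes from low to high, and changes at shores have been described in colon cancer. No gene annotation of the files' build, mm9, was used here, so no pair is tied to a gene, an island or a promoter, and a low side is not shown to be an island. No genome sequence of that build was used either, and positions are as the files give them.

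A region's methylation level is the percent of its calls that were methylated, where a call is 1 CpG read in 1 sequencing read. Total calls per sample ran from 24682973 to 30727568. The median number of calls per region was 78 to 96 on the high side and 116 to 142 on the low side, over the 6 samples. Calls of 1 read are not independent, and intervals built on them would be too narrow, so none are given. The only limits printed are for samples at 0%, as 3 methylated calls over the sample's calls. They treat calls as independent, so the levels that the data allow may be higher than these limits. Between the 2 samples of a group, the step of a pair differed on average by 7.81 points with curcumin, by 7.93 points in AOM/DSS and by 8.04 points in the controls, which is the size of error behind any single pair.

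The median control step was 63.7 points and the largest 98.5 points. A control step of at least 60 points was found in 4063 pairs, of at least 70 in 2230, of at least 80 in 876 and of at least 90 in 168. The low side was under 5% in control in 2715 pairs, between 5% and 20% in 2527 and at 20% or more in 1397. The high side was at 90% or more in control in 1230 pairs, between 70% and 90% in 3343 and under 70% in 2066.

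The sides also differed in CpG content, which the choice had not used. High sides had a median of 5 CpGs over 143 bases and low sides a median of 8 CpGs over 220 bases. The density, as total CpGs over total bases, was 3.598 CpGs per 100 bases on the high side, 4.63 on the low side and 5.10 over all paired regions. The low side had more CpGs than its partner in 4153 pairs (62.6%), fewer in 1775 and as many in 711, and among the other pairs the less methylated region had more CpGs in 54.7%. The low side had 30 or more CpGs in 299 pairs and the high side in 5. Distances were longer at boundaries, with a median gap of 204 bases against 134 bases over all pairs. A gap of 250 bases or more was found in 39.6% of boundaries and in 21.5% of all pairs.

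The pairs just past the threshold show how little separates a member from its neighbour in rank. The 3 pairs just inside had control steps between 50.003 and 50.0139 points, and the 3 just outside had control steps between 49.9907 and 49.9995 points. At chromosome 5, positions 73779268 to 73779654 and 73779850 to 73779926, a pair just inside, the high side was 77.9% and 83.7% methylated with curcumin, 72.7% and 75.5% in AOM/DSS and 81.4% and 85.4% in the controls. Its low side was 28.2% and 25.5% methylated with curcumin, 28.2% and 41.5% in AOM/DSS and 35.1% and 31.6% in the controls. At chromosome 7, positions 77480200 to 77480509 and 77479886 to 77480171, a pair just outside, the more methylated region was at 42.5% and 51.7% with curcumin, 41.7% and 40.4% in AOM/DSS and 51.6% and 49.5% in the controls.

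The widest control steps joined a fully methylated region of few CpGs to an unmethylated one. The widest was on chromosome 1, where positions 135962567 to 135962653 (3 CpGs) were 91.8% and 96.3% methylated with curcumin, 98.04% and 86.3% in AOM/DSS and 98.2% and 100% in the controls. Its low side, at positions 135962073 to 135962213, was at 0% and 0% with curcumin, 3.49% and 1.05% in AOM/DSS and 1.205% and 0% in the controls, and the 3 samples at 0% had 59 to 78 calls, which allows up to 5.08% in the shallowest. On chromosome 11, positions 78364967 to 78365118 were 96.6% and 100% methylated with curcumin, 96.0% and 96.8% in AOM/DSS and 100% and 98.7% in the controls. The 31 CpGs of its low side, positions 78364241 to 78364676, were at 1.02% and 1.33% with curcumin, 1.11% and 2.22% in AOM/DSS and 1.19% and 1.31% in the controls. In the 5 pairs with the widest control steps, the step stayed between 87.4 and 100 points in the curcumin samples and between 85.2 and 98.7 points in the AOM/DSS samples, so none of these boundaries was lost in either group.

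Some boundaries lay between regions that almost touched. The smallest gap was 2 bases, on chromosome 15, between a low side at positions 25294517 to 25294855 and a high side at positions 25294857 to 25295194. The high side was 88.6% and 92.1% methylated with curcumin, 90.3% and 95.1% in AOM/DSS and 93.5% and 90.6% in the controls. The low side was 41.2% and 36.0% methylated with curcumin, 36.8% and 53.5% in AOM/DSS and 28.1% and 34.4% in the controls, with both AOM/DSS samples above both control samples. On chromosome 9, a gap of 5 bases stood between 43 CpGs at positions 57352023 to 57352403 and 21 CpGs at positions 57352408 to 57352795. The 43 CpGs were at 0.381% to 1.504% over the 6 samples, and the 21 CpGs were at 61.8% and 55.0% with curcumin, 56.7% and 58.7% in AOM/DSS and 56.4% and 56.2% in the controls, where the groups overlapped. A gap under 50 bases was found in 189 boundaries.

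The boundaries persisted in the groups that had not chosen them. With curcumin, 5670 of the 6639 pairs (85.4%) still had a mean step of at least 50 points, 964 had one between 25 and 50 points, 5 one under 25 points and 0 a reversed one. In AOM/DSS, 5420 pairs (81.6%) still had a mean step of at least 50 points, 1200 had one between 25 and 50 points, 19 one under 25 points and 0 a reversed one. The smallest step left was 18.0 points with curcumin and 10.7 points in AOM/DSS. Counted by the same 50-point rule within each group, 6544 pairs qualified with curcumin, 6186 in AOM/DSS and 6639 in the controls, and 5050 did so in all 3 groups. Curcumin and AOM/DSS shared 5397 pairs, which is 82.5% of the curcumin set and 87.2% of the AOM/DSS set.

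Averaged over the boundaries, the step was wider with curcumin than in AOM/DSS. The mean step was 64.3 and 63.9 points in the 2 curcumin samples, 62.6 and 61.8 points in the 2 AOM/DSS samples and 65.7 and 65.5 points in the 2 control samples. The curcumin samples fell between the other groups, with no overlap on either side. As means over samples, the step was 64.1 ± 0.245 points with curcumin, against 62.2 ± 0.533 points in AOM/DSS (SD, n = 2 each), a difference of 1.88 points. The groups did not overlap, and the two-sided exact permutation test gave p = 0.333, the smallest that 2 samples against 2 allow, so no such difference can pass a threshold here. The step was 65.6 ± 0.143 points in control (SD, n = 2). The difference between curcumin and AOM/DSS was 1.499 points without AOM/DSS replicate 1 and 2.25 points without AOM/DSS replicate 0.

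**Figure D1:**
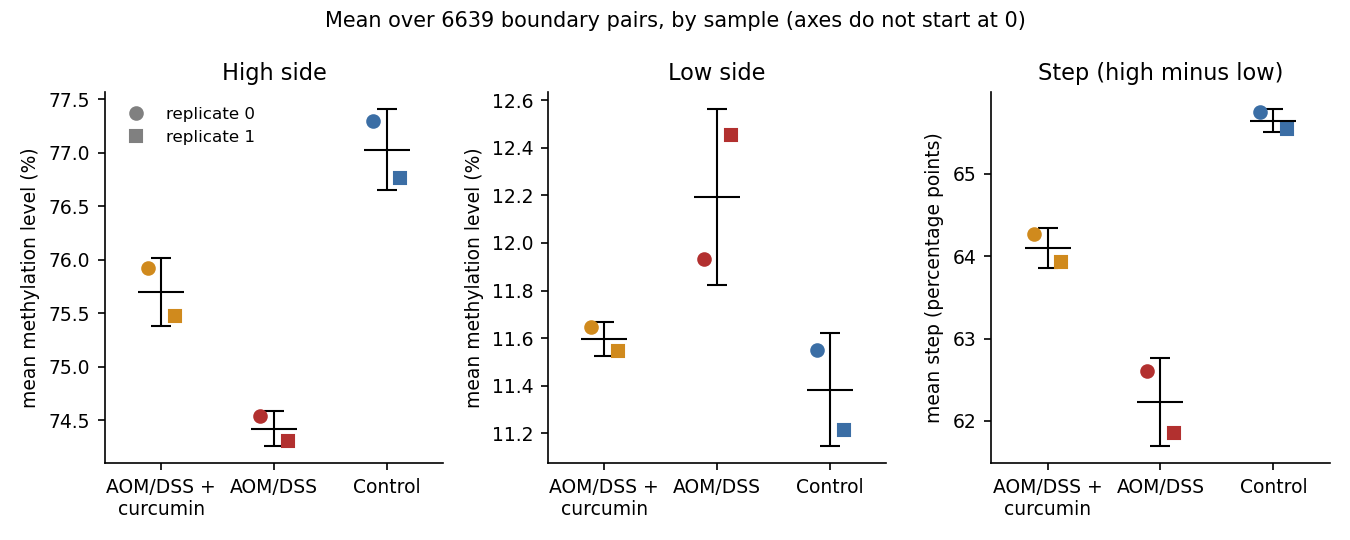
Mean methylation level (percent) of the high side and of the low side, and mean step (percentage points), over the 6639 boundary pairs in each sample. Circles and squares are replicates 0 and 1, and black marks are the group mean ± SD. The vertical axes do not start at 0. On the right the curcumin samples (64.3 and 63.9 points) lie between the AOM/DSS samples (62.6 and 61.8 points) and the control samples (65.7 and 65.5 points).

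Most of this difference lay on the methylated side. The high side averaged 75.9% and 75.5% in the curcumin samples, 74.5% and 74.3% in the AOM/DSS samples and 77.3% and 76.8% in the control samples. With curcumin it was 1.28 points above AOM/DSS, with no overlap (exact permutation p = 0.333, two-sided), which is 68.1% of the difference in step. The low side averaged 11.6% and 11.5% in the curcumin samples, 11.9% and 12.5% in the AOM/DSS samples and 11.6% and 11.2% in the control samples. Its difference between curcumin and AOM/DSS was −0.598 points, again with no overlap (exact permutation p = 0.333, two-sided). AOM/DSS replicate 1 carried much of the low-side difference, which was −0.337 points without that sample. With each sample's median over pairs in place of its mean, the low-side difference was −0.991 points.

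The same order was found along the genome. On 18 of 19 autosomes both curcumin samples had a wider mean step than both AOM/DSS samples, and the difference ran from 1.08 to 2.88 points over the 19. The high side was higher with curcumin without overlap on 16 autosomes, and the low side was lower without overlap on 16. Autosomes share the same 4 samples, so they are not replicates.

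The difference was seen in pair after pair only as a shift of a wide distribution. The mean step was wider with curcumin than in AOM/DSS in 4014 of 6639 boundaries (60.5%), against 37402 of all 73481 pairs (50.9%). The median change was 1.80 points over boundaries and 0.0643 points over all pairs. Over single regions, the median change with curcumin against AOM/DSS was 1.15 points on the high side and −0.357 points on the low side, against 0.111 points over all regions tested.

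Larger changes were counted as steps at least 10 points apart between the group means with no overlap of samples. By that count 720 boundaries (10.8%) were wider with curcumin than in AOM/DSS, where 4.69% of all pairs were, and 278 boundaries (4.19%) were narrower, where 3.58% of all pairs were. Boundaries vary more between replicates than other pairs do (7.81 points with curcumin and 7.93 points in AOM/DSS, against 5.55 and 5.68 points over all pairs in the same groups), and the part of that spread in these counts was not tested. In 511 of the 720 wider boundaries (71.0%) the high side had moved more than the low side. The same was found in 192 of the 278 narrower ones (69.1%), so it is not particular to the wider boundaries. This share was not taken over all pairs. At the level of regions, 138 high sides (2.10%) were at least 10 points higher with curcumin at an unadjusted edgeR quasi-likelihood p under 0.05, where 1.29% of all regions were, and 47 (0.715%) were lower, where 0.706% of all regions were. On the low side 77 regions (1.19%) were lower by that rule and 49 (0.757%) were higher. The shares over all regions and all pairs were not matched for methylation level or step.

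No single boundary passed the test for curcumin against AOM/DSS. The edgeR quasi-likelihood test of the step, with Benjamini-Hochberg adjustment over all pairs, called 0 of 6639 boundaries in that comparison (0% of all 73481 pairs were called). An unadjusted p under 0.05 was found in 294 boundaries (4.43%), where 4.09% of all pairs had one, so the share was near that of all pairs. A moderated limma test on the step also called 0. The test of single regions called 0 of 13047 member regions for curcumin against AOM/DSS (0% of all 179922 regions). An unadjusted p under 0.05 was found in 646 member regions (4.95%), where 5.25% of all regions had one. A quasi-binomial model called 0 member regions and 7 of all regions.

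The boundaries nearest to a call, named by the smallest unadjusted p among those whose groups did not overlap, moved on different sides. On chromosome 9 the low side, at positions 90155399 to 90155665 (7 CpGs), was at 7.61% and 3.20% with curcumin, 20.6% and 26.1% in AOM/DSS and 15.0% and 11.5% in the controls. Its high side, at positions 90155932 to 90155991, was at 65.1% and 73.4% with curcumin, 54.8% and 59.4% in AOM/DSS and 64.4% and 75.4% in the controls. Both sides moved apart, and the step was 30.1 points wider with curcumin than in AOM/DSS (edgeR adjusted p = 0.792).

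On chromosome 12 the low side alone differed. Positions 113004753 to 113004775 (3 CpGs, as few as 25 calls) were at 6.76% and 10.6% with curcumin, 40% and 48.3% in AOM/DSS and 29.03% and 13.6% in the controls. The high side 159 bases away, at positions 113004934 to 113005172, was at 77.5% and 77.4% with curcumin and 75.0% and 80.3% in AOM/DSS, so the groups overlapped there.

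On chromosome 10 the high side moved more. Positions 60291725 to 60291961 (6 CpGs) were at 83.3% and 79.6% with curcumin, 70.9% and 52.7% in AOM/DSS and 72.2% and 81.9% in the controls. The low side, 13 CpGs at positions 60291119 to 60291579, was at 0.840% and 1.42% with curcumin, 3.81% and 7.26% in AOM/DSS and 2.53% and 6.91% in the controls. The step was 24.1 points wider with curcumin than in AOM/DSS.

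On chromosome 11 both sides contributed. The high side, 3 CpGs at positions 60747811 to 60747922, was at 73.2% and 65.4% with curcumin, 62.8% and 57.9% in AOM/DSS and 65.9% and 69.8% in the controls, on 26 to 43 calls. The low side, at positions 60747405 to 60747482, was at 0% and 0% with curcumin on 88 and 79 calls, which allows up to 3.41% and 3.797%, and at 10.7% and 10.8% in AOM/DSS, with 0% and 12.8% in control. Over the 5 boundaries of this kind the step was 17.9 to 35.3 points wider with curcumin, at adjusted p of 0.677 to 0.873 in the edgeR test.

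Boundaries that were narrower with curcumin were found as well. On chromosome 4 the high side, positions 43543790 to 43543947, was at 60.5% and 57.4% with curcumin, 70.6% and 79.4% in AOM/DSS and 68.1% and 69.9% in the controls. The low side, positions 43543506 to 43543672, was at 2.78% and 10.7% with curcumin, 0% and 0% in AOM/DSS on 89 and 87 calls, which allows up to 3.37% and 3.45%, and 1.61% and 3.45% in control. The step of curcumin minus that of AOM/DSS was −22.8 points (edgeR adjusted p = 0.570). On chromosome 12 a further boundary had its high side, positions 107272768 to 107272829, at 77.5% and 86.0% with curcumin, 95.9% and 91.9% in AOM/DSS and 91.3% and 93.3% in the controls. Over the 5 boundaries of this kind, the step of curcumin minus that of AOM/DSS ran from −24.5 to −13.2 points, and that of AOM/DSS minus control from −8.30 to 10.6 points.

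**Figure D2:**
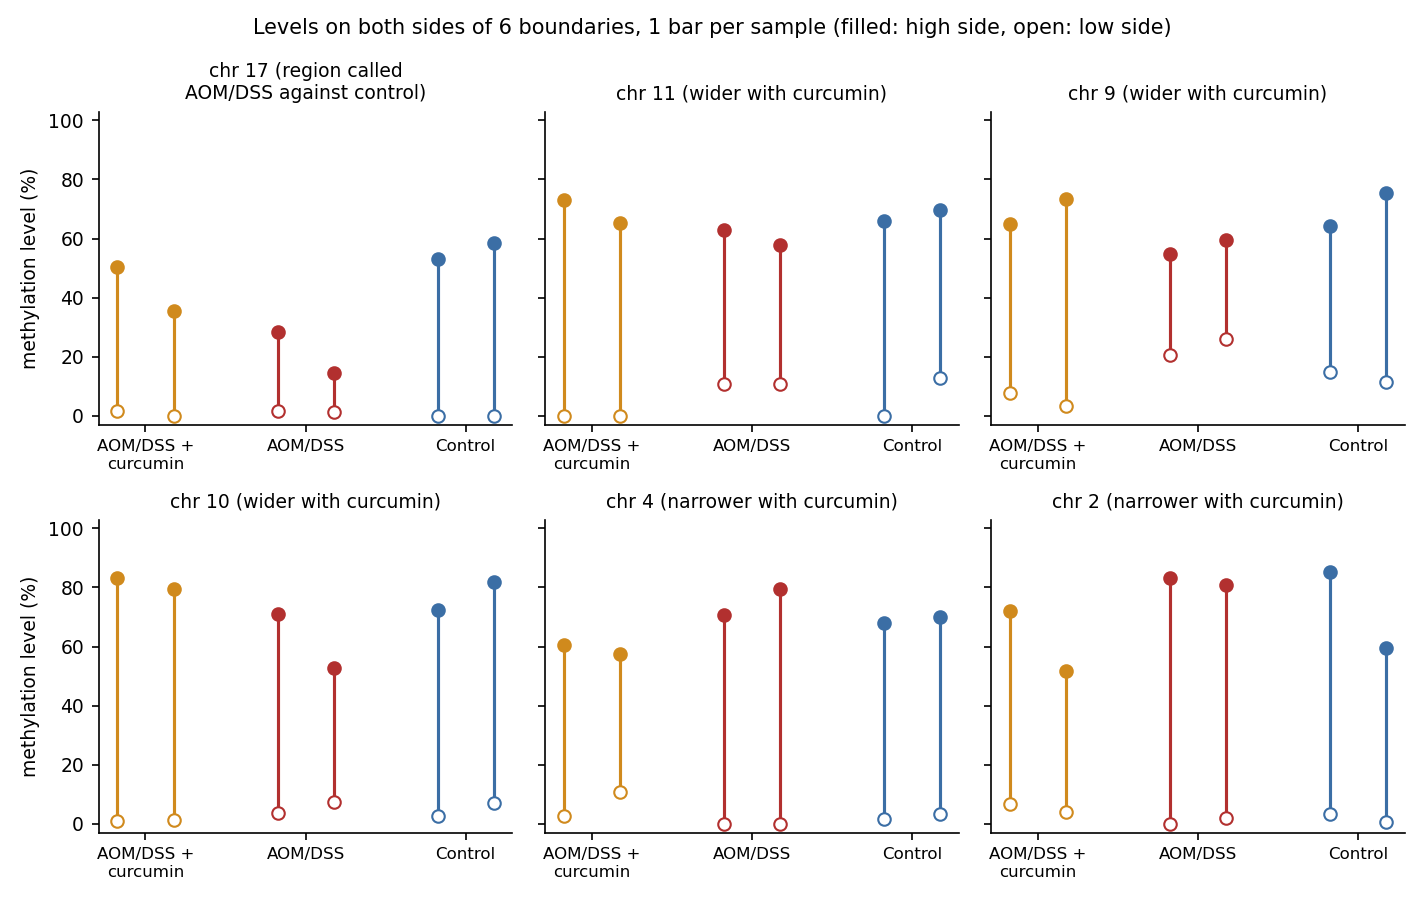
Methylation level (percent) on both sides of 6 boundaries, with 1 vertical line per sample from its low side (open circle) to its high side (filled circle), replicate 0 left of replicate 1. The first panel is the boundary whose high side was called between AOM/DSS and control, the next 3 are the boundaries with the smallest unadjusted p among those wider with curcumin, and the last 2 among those narrower. On chromosome 17 the lines are short in AOM/DSS (28.2% and 14.5% on the high side) and long in control (53.0% and 58.4%).

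Against control, AOM/DSS boundaries were flatter, and the size of the difference depended on the samples that chose the pairs. The mean step of AOM/DSS minus control was −3.42 points, with −2.61 points on the high side and 0.811 points on the low side, each without overlap in the pairs that control had chosen. Pairs chosen by samples outside the comparison, or by 1 control sample for comparison with the other, gave smaller differences. Pairs chosen by the AOM/DSS samples themselves, a choice that leans the other way, gave 0.0347 points with overlap. Chosen by the curcumin samples, 6544 pairs had a step of 62.1 and 62.9 points at the lowest and highest AOM/DSS sample, against 64.2 and 64.6 points at the lowest and highest control sample, a difference of −1.86 points without overlap. Chosen by 1 control sample and compared with the other, the AOM/DSS step differed by −1.43 points in 6906 pairs chosen by replicate 0 and by −2.09 points in 6832 pairs chosen by replicate 1.

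The side that remained different under those choices was the high one. Over the pairs chosen by the curcumin samples, the high side averaged 74.9% in AOM/DSS, against 76.5% in control, a difference of −1.60 points without overlap. The low side averaged 12.3% in AOM/DSS, against 12.1% in control, 0.262 points higher with overlap between the samples. With pairs chosen by control replicate 0 or 1, the low side of AOM/DSS was 0.290 or 0.0320 points above the control sample that was left, inside the range of the 2 AOM/DSS samples.

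Between curcumin and control, the difference in step was near 0 once other samples chose the pairs. In the pairs chosen by control, the step of curcumin minus control was −1.54 points. In 6186 pairs chosen by the AOM/DSS samples, it averaged 64.98 points with curcumin and 64.97 points in control, a difference of 0.0119 points with overlap. Chosen by control replicate 0 and compared with replicate 1 it was 0.301 points wider with curcumin, and chosen by replicate 1 and compared with replicate 0 it differed by −0.117 points. On the low side of the pairs chosen by AOM/DSS, curcumin minus control was −0.300 points, without overlap.

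**Figure D3:**
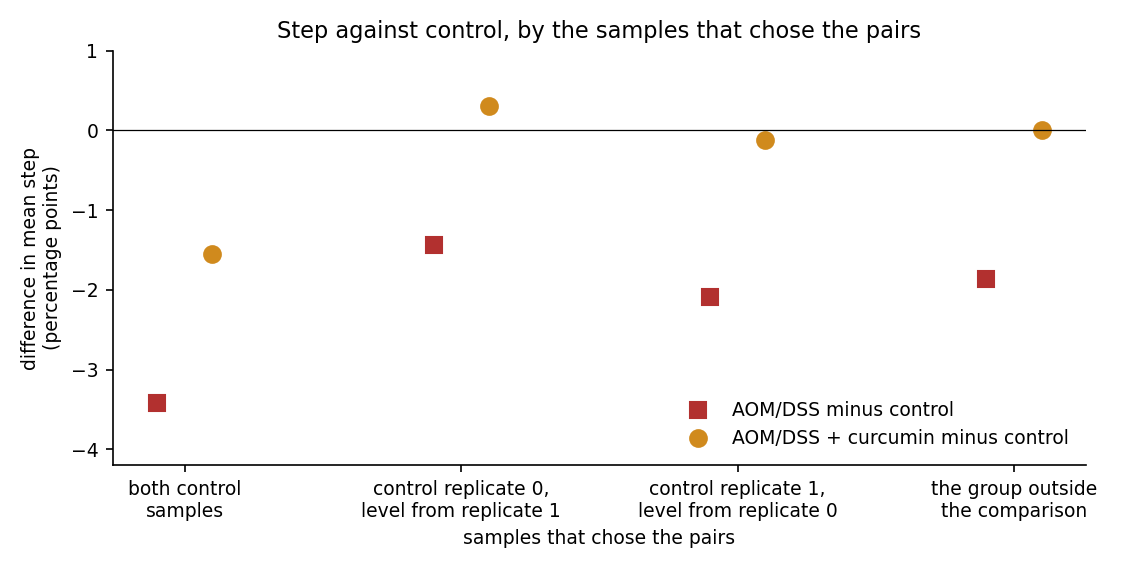
Difference from control in mean step (percentage points) for AOM/DSS (squares) and for AOM/DSS with curcumin (circles), by the samples that chose the pairs. With both control samples choosing, the differences are −3.42 and −1.54 points, and with the group outside the comparison choosing they are −1.86 and 0.0119 points.

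Counting boundaries sample by sample uses no group's choice. With curcumin, 6759 and 6709 of the 73481 pairs had a step of at least 50 points in either direction, in AOM/DSS 6402 and 6296 did, and in control 6906 and 6832 did. The count was 385 higher with curcumin than in AOM/DSS on average, without overlap (exact permutation p = 0.333, two-sided). The relative difference was widest at the sharpest boundaries. Steps of at least 80 points numbered 987 and 995 with curcumin, 852 and 786 in AOM/DSS and 1001 and 969 in the controls. Steps of at least 90 points numbered 204 and 200 with curcumin, 160 and 127 in AOM/DSS and 200 and 208 in the controls, where curcumin and control overlapped and AOM/DSS lay below both. Depth moved with this comparison, since the AOM/DSS samples had 30727568 and 28766117 calls and the curcumin samples 26924351 and 26069698, and its part in the counts was not tested. The control samples had 30168228 and 24682973 calls.

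**Figure D4:**
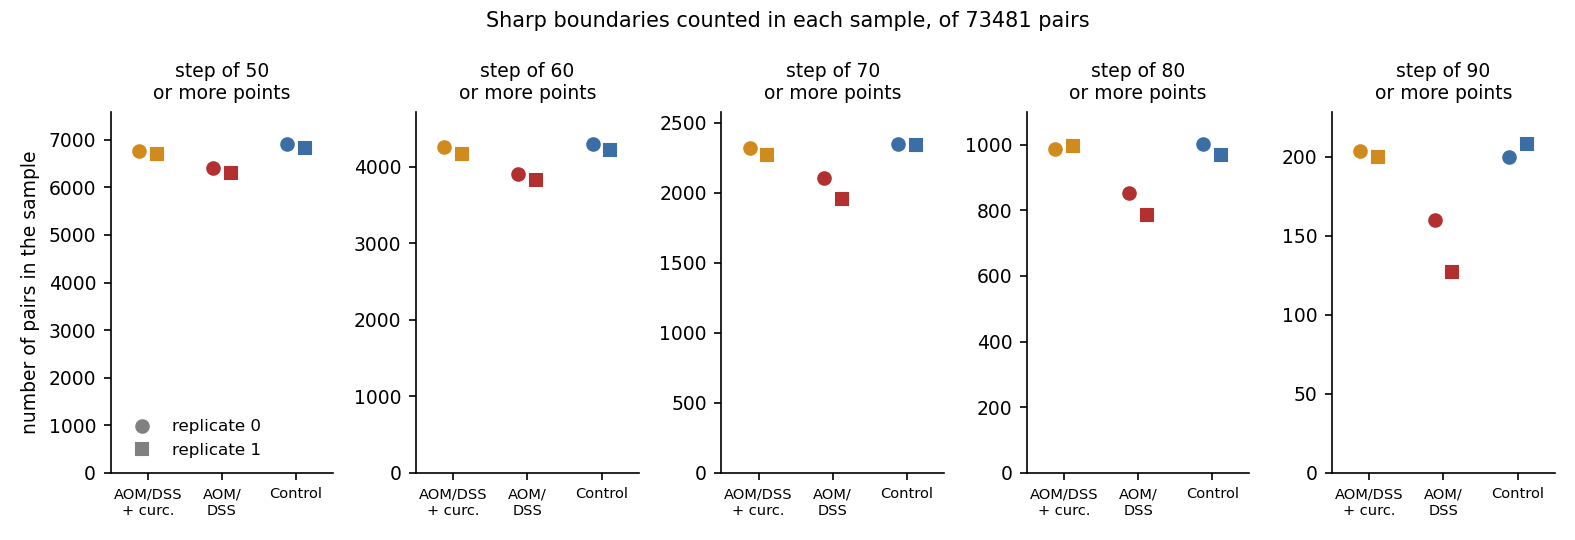
Number of pairs, of 73481, whose 2 regions differed by at least 50, 60, 70, 80 or 90 percentage points within a sample, in either direction. Circles and squares are replicates 0 and 1, and each vertical axis starts at 0. Both AOM/DSS samples lie lowest in every panel, with 6402 and 6296 pairs at 50 points and 160 and 127 at 90 points.

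Regions further out show how far the differences reached. Outward from the boundary, the second region and the third within the same gap limit could be counted on the low side in 3774 and 2153 pairs and on the high side in 1596 and 551 pairs. With curcumin the first region of the low side differed from AOM/DSS by −0.598 points, while the second region and the third differed by −0.104 and −0.0828 points, with overlap between the samples. Within the 3774 pairs that had both, the first and second low regions differed in their change by −0.471 points, without overlap (exact permutation p = 0.333, two-sided). In the 2153 pairs with a region counted beyond it, the second low region differed by −0.206 points between curcumin and AOM/DSS, without overlap. The mean over 3774 pairs therefore does not show that the difference ended at the first region. On the high side the difference between curcumin and AOM/DSS went on, at 1.28 points in the first region, 1.59 points in the second and 0.775 points in the third, each without overlap.

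For AOM/DSS against control, the first regions belong to the pairs that control chose, so the change at the edge cannot be set against that of the outer regions. The second region and the third on the low side differed from control by −0.0159 and −0.0629 points with overlap, while the high side differed by −2.61, −2.10 and −1.65 points in the first, the second and the third region. The outer regions were not chosen as part of the pair they adjoin, but some are sides of another boundary, chosen by control. In 336 pairs the low side lay between 2 high ones, so the next region outward is a high side. In 126 pairs the high side lay between 2 low ones, so the next region outward is a low side. Their part in the outer means was not tested. In the 2153 pairs with a region counted beyond it, the second low region of AOM/DSS differed from control by 0.131 points, without overlap. Low regions had more CpGs with distance (median 8, 14 and 15 in the first, the second and the third).

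**Figure D5:**
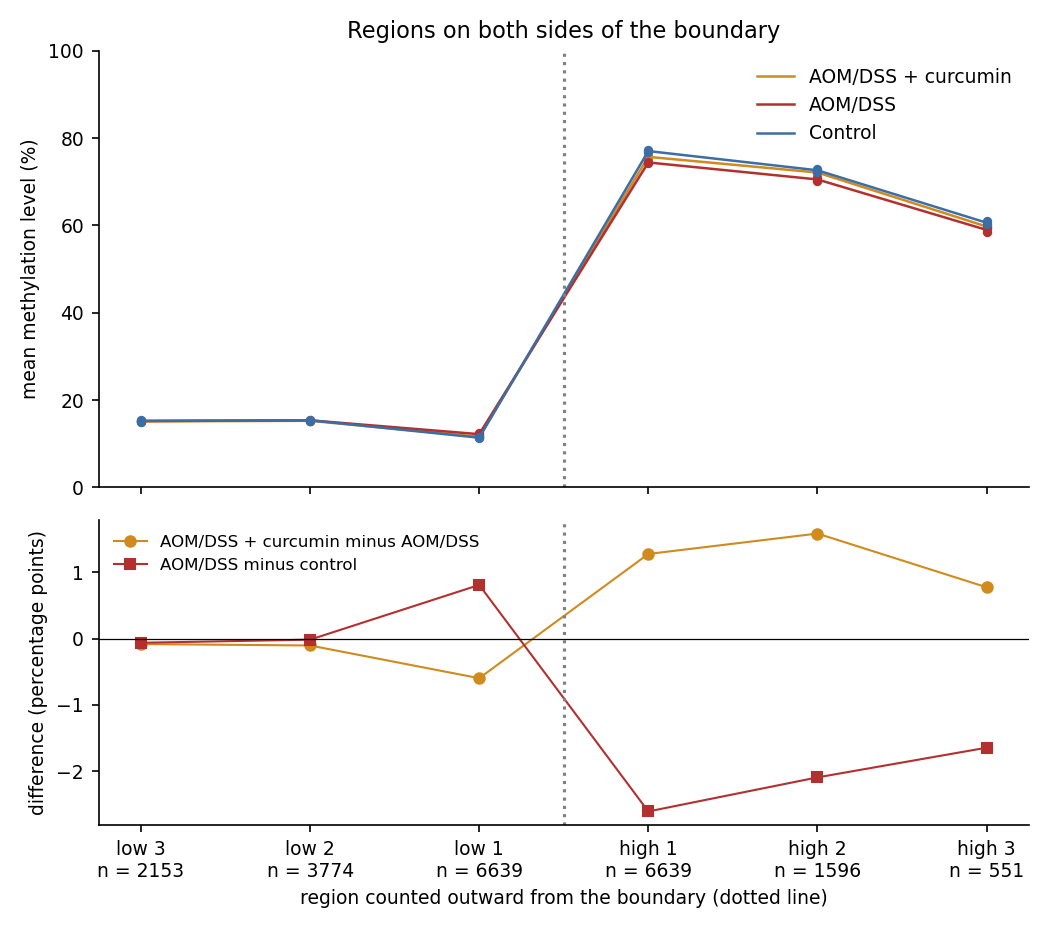
Above, the mean methylation level (percent) of the first, the second and the third region outward from the boundary (dotted line) on the low and on the high side, as group means (lines) with the 2 samples of each group (points). Below, the differences in percentage points for curcumin minus AOM/DSS (circles) and AOM/DSS minus control (squares), with the number of pairs under each position. Both differences are near 0 at the second low region and the third (−0.104 and −0.0159 points at the second) and largest on the high side.

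High sides were set beside the other paired regions of the same level, which lay in no boundary. For curcumin against AOM/DSS, with the level taken in control, 3306 high sides between 70% and 90% were 1.62 points higher with curcumin, while 13108 other regions were 1.94 points higher. The difference in change was −0.322 points in that class, −0.384 points between 50% and 70% and −0.196 points at 90% or more, each without overlap (exact permutation p = 0.333 each, two-sided). In these 3 classes high sides thus changed by less than the other regions.

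For AOM/DSS against control, with level and boundaries set by the curcumin samples, 3224 high sides between 70% and 90% differed by −1.74 points and 13064 other regions by −2.47 points. The difference in change was 0.735 points in that class and 0.623 points between 50% and 70%, without overlap (exact permutation p = 0.333 each, two-sided), and 0.148 points at 90% or more, with overlap (p = 0.667 by the same exact test). For curcumin against control, with level and boundaries set by the AOM/DSS samples, the difference in change was 0.349 points between 70% and 90% and 0.373 points between 50% and 70%, without overlap, and −0.162 points at 90% or more, with overlap.

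On the low side the classes differed. Between 5% and 20% in control, curcumin minus AOM/DSS was −0.910 points at 2450 low sides and −0.850 points at 13835 other regions, a difference in change of −0.0597 points without overlap. Between 20% and 50% it was −0.222 points at 1358 low sides and 0.00982 points at 12793 other regions, a difference in change of −0.232 points without overlap (exact permutation p = 0.333 for both classes, two-sided). Under 5% it was −0.489 points at 2663 low sides and −0.320 points at 42275 other regions, and the difference in change, −0.169 points, overlapped. In each class the change was more negative at the low sides than at the other regions, although under 5% the samples overlapped in that difference. Between 20% and 50% the curcumin and AOM/DSS samples overlapped at the low sides, and also at the other regions.

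Boundaries of different build gave differences of the same sign. The step was wider with curcumin than in AOM/DSS by 1.24 points at the 399 pairs with a gap under 100 bases, by 1.61 points at the 3610 with a gap of 100 to 250 bases and by 2.34 points at the 2630 with a longer gap. By the control level of the high side, it was wider by 1.38 points under 70%, by 2.45 points between 70% and 90% and by 1.16 points at 90% or more. With 30 or more CpGs on the low side, the difference was 1.21 points in 299 pairs, with overlap between the samples (exact permutation p = 0.667, two-sided). Sites where 1 low region lay between 2 high ones, 168 regions in 336 pairs, differed by 2.24 points, and sites where 1 high region lay between 2 low ones, 63 regions in 126 pairs, differed by 2.73 points. In the 6184 pairs whose regions belonged to no other boundary, the difference was 1.84 points. Differences between these classes were not tested.

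The low side lay at the smaller coordinate in 3698 pairs and the high side in 2941, so the low side came first in 55.7%. This imbalance was also found at smaller control steps, with 53.4% at 10 to 30 points and 54.5% at 30 to 50 points. Low sides had a median width of 213 bases when first and 230 bases when second. The step was wider with curcumin than in AOM/DSS by 1.76 points with the low side first and by 2.02 points with the high side first.

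A single member region passed the test in any of the 3 comparisons, in AOM/DSS against control. It is the high side of a boundary on chromosome 17, at positions 35338382 to 35338812, with 16 CpGs and 389 to 516 calls per sample. It was 50.4% and 35.7% methylated with curcumin, 28.2% and 14.5% in AOM/DSS and 53.0% and 58.4% in the controls. Both AOM/DSS samples lay below all 4 others. The low side 122 bases on, at positions 35338934 to 35339172 with 11 CpGs, was at 1.504% and 0% with curcumin, 1.63% and 1.35% in AOM/DSS and 0% and 0% in the controls, where 159 and 113 calls allow up to 1.89% and 2.65%.

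Most of the change thus lay on the methylated side of that boundary. The region's edgeR adjusted p was 0.0392 for AOM/DSS against control, a contrast whose control values had chosen the pair, and 0.684 for curcumin against AOM/DSS. Of the 6 edgeR fits that left out 1 sample, the call held in 1, without AOM/DSS replicate 0 (adjusted p = 0.00961), and it was lost without any of the other samples, with adjusted p up to 0.920 without AOM/DSS replicate 1. It held in 3 of all 10 alternative fits, which gave adjusted p from 0.000131 to 0.920. The step of AOM/DSS minus control was −35.8 points, and the step was 22.4 points wider with curcumin than in AOM/DSS. The edgeR test of that step did not pass (adjusted p = 1), while the limma test of the step gave an adjusted p of 0.00475 for AOM/DSS against control.

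The regions next to it on the methylated side differed in the same direction, though neither is part of a boundary. Positions 35338139 to 35338267 (5 CpGs) were 44.7% and 28.8% methylated with curcumin, 13.5% and 8.33% in AOM/DSS and 54.3% and 60% in the controls, and were also called for AOM/DSS against control (edgeR adjusted p = 0.0228). Positions 35337598 to 35337831 (8 CpGs) were 59.6% and 47.6% methylated with curcumin, 49.0% and 26.4% in AOM/DSS and 77.1% and 69.5% in the controls, which did not pass (edgeR adjusted p = 0.256). At both, the AOM/DSS samples lay below both control samples.

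Over all features, the region test called 0.00389% of 179922 regions for AOM/DSS against control and 0% for curcumin against control, and the step test called 0.00272% and 0.00136% of 73481 pairs. No boundary had a called step in either comparison by edgeR (0 of 6639 each). For AOM/DSS against control, limma called 1 boundary and 4 of all pairs, and for curcumin against control it called 0 of either. An unadjusted edgeR p under 0.05 was found in 409 boundaries (6.16%) for AOM/DSS against control, where 4.41% of all pairs had one, and in 238 (3.58%) for curcumin against control, where 3.79% had one. Among member regions, it was found in 818 (6.27%) for AOM/DSS against control, where 6.34% of all regions had one, and in 507 (3.89%) for curcumin against control, where 4.17% had one. A quasi-binomial model called 0 regions for curcumin against control.

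As a description with control-chosen pairs, 994 boundaries (15.0%) were at least 10 points narrower in AOM/DSS than in control without overlap, where 5.72% of all pairs were, and 187 (2.82%) were wider, where 3% of all pairs were. The high side had moved more in 725 of the 994 (72.9%) and in 121 of the 187 (64.7%), a share not taken over all pairs. By the unadjusted rule for regions, 251 high sides (3.82%) were lower in AOM/DSS, where 2.1% of all regions were, and 100 low sides (1.55%) were higher, where 0.723% were. The choice in control favours these directions, so the counts are not read as a result.

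The narrower boundaries of AOM/DSS with the smallest unadjusted p were of both kinds. On chromosome 10 the high side, positions 111020127 to 111020259 (8 CpGs), was at 42.9% and 41.2% with curcumin, 38.5% and 34.9% in AOM/DSS and 59.7% and 83.3% in the controls, with curcumin close to AOM/DSS. On chromosome 15 both sides closed in, with the high side at positions 81998334 to 81998465 at 90.4% and 90.1% with curcumin, 77.4% and 81.1% in AOM/DSS and 86.4% and 93.1% in the controls. Its low side, 10 CpGs at positions 81997801 to 81998137, was at 18.3% and 20.6% with curcumin, 29.8% and 34.8% in AOM/DSS and 13.0% and 17.6% in the controls. Curcumin lay nearer to control than to AOM/DSS on both sides. These pairs were picked for a difference between AOM/DSS and control, so where curcumin lay is not read as a result.

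On chromosome 1 the change lay on the low side. Positions 155178433 to 155178588 (4 CpGs) were at 5.88% and 7.78% with curcumin, 17.8% and 17.2% in AOM/DSS and 2.13% and 2.63% in the controls, while the high side at positions 155177885 to 155178042 overlapped between all groups. On chromosome 2 the widest of these changes was a step that differed by −47.2 points between AOM/DSS and control. There the high side, 5 CpGs at positions 147948730 to 147948832 with 23 to 35 calls, was at 69.6% and 79.3% with curcumin, 48.6% and 50% in AOM/DSS and 88.6% and 84.0% in the controls. None of the 5 passed, at edgeR adjusted p of 0.653 to 0.960.

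Boundaries that were wider in AOM/DSS than in control were found too. On chromosome 11 the low side, 12 CpGs at positions 106509782 to 106510019, was at 7.64% and 3.12% with curcumin, 1.30% and 2.52% in AOM/DSS and 9.42% and 9.93% in the controls. Its high side, positions 106510159 to 106510311, stayed at 73.5% to 78.0% over the 6 samples. The 5 boundaries of this kind had steps 9.90 to 29.1 points wider in AOM/DSS than in control, at edgeR adjusted p of 0.938 to 1.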

How the data were processed

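Colon epithelial DNA was captured (Agilent SureSelectXT Mouse Methyl-Seq) and bisulfite sequenced, per the labels. The submitters' processing notes name R 3.4.0, Bismark 0.15.0 and ChIPseeker 1.10.3, and the build mm9, without settings. For each region the deposited files hold counts of CpGs, of methylation calls and of methylated calls, left blank under 20 calls. How duplicate reads were handled was not stated, nor whether starts count from 0 or 1, so positions may be 1 base off.

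Levels, steps and group means ± SD were computed from these counts. Regions and steps were tested with edgeR 4.0.16 (quasi-likelihood, methylated and unmethylated counts, all 6 samples). Adjustment was Benjamini-Hochberg over all features, and a call needed adjusted p under 0.05 and 10 points. The region test has 1 coverage coefficient per sample. The step test has 1 per sample and side, adds 1 methylation coefficient per sample and leaves 3 residual degrees of freedom. Alternatives were limma 3.58.1 on the step, a quasi-binomial model, other gaps, thresholds, call minimums and choosing samples, chromosome X, pooled control calls, pairs with regions in no other pair, a replicate block and leaving out each sample. The fits were tested on simulated data, where the step test found few of the planted changes, so a count of 0 called steps does not show that steps did not change. Mean levels were compared by exact permutation. Named boundaries are those called, then up to 5 per direction and comparison with the smallest unadjusted p without overlap, the 5 widest, the 5 with the smallest gap and 3 on each side of the threshold. Members, classes and lists were chosen with earlier results of these data known.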

Additional observations from a re-analysis of the deposited data

How the results depend on the processing

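The wider mean step with curcumin than in AOM/DSS kept its direction under the 15 alternatives run. Among these, the replicate block cannot change a difference of group means, so it adds nothing. Choices by the compared groups, which favour the group that chose, were not among the 15. Pairs chosen by AOM/DSS gave a curcumin minus AOM/DSS step of −0.0228 points with overlap. Pairs chosen by curcumin gave 3.23 points without overlap. The difference between curcumin and AOM/DSS was 1.00 points on the high side with at least 100 calls. On the low side it was −0.991 points as a median. Here and below, a median is taken over the pairs of each sample and then averaged by group. For AOM/DSS minus control the step was −2.65 points with at least 100 calls, −2.50 points as a median, −1.43 and −2.09 points with pairs chosen by control replicates 0 and 1 and −1.86 points with pairs chosen by curcumin. Its high side was −2.15, −2.29, −1.14, −2.06 and −1.60 points in the same order, and its low side 0.499 points with at least 100 calls and 0.290, 0.0320 and 0.262 points under the last 3 choices. For curcumin minus control the step was −1.82 points with gaps of at most 200 bases, −1.26 and −1.19 points with at least 50 and 100 calls, −0.761 points as a median and −0.117 points chosen by control replicate 1, and it turned positive chosen by control replicate 0 (0.301 points) or by AOM/DSS (0.0119 points). Fewer pairs remain under the stricter call minimums and the shorter gap. Choosing by another group takes both control samples out of the selection. Choosing by 1 control sample takes out only the control sample that is compared. The cause of the shifts was not tested. Leaving out each sample in turn changed no direction.

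For AOM/DSS against control, the count of called member regions (1) became 0 with at least 50 calls, 0 with only the 4 samples compared, 6 with the quasi-binomial model (58 of all 179922 regions) and 0 to 1 leaving out each sample, and limma called 1 boundary step (4 of all 73481 pairs); the cause was not tested. The 1 region called without control replicate 0 is not the chromosome 17 region. Replicate numbers did not pair the samples, since deviations of same-numbered samples correlated at 0.00754 to 0.0548 and no label gives the numbers a meaning. A fit with the replicate block called 3 member regions (41 of all regions) for AOM/DSS against control and 0 in the other comparisons. Single boundaries are limited by the spread between replicates, whose steps differ by about 8 points, and the part of depth in that spread was not tested. Changes of a few points can thus be read only as means over many pairs.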
